A study of Mus musculus with 9 samples.

Results

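The genes described here encode the subunits of the mitochondrial respiratory chain and of ATP synthase that come from the nuclear genome. They were taken from the table of all genes by symbol: Nduf names with a letter a, b, c, s or v and a number, Sdha to Sdhd, names that begin with Uqcr, Cox4 to Cox8 names, and names that begin with Atp5. Symbols ending in -ps and Ndufa4l2 were left out. Of 26202 rows, 86 matched, and 80 of these had a mean of at least 1 over the 9 libraries once the deposited log2 values were raised back to a linear scale. By complex, 37 members belonged to complex I, 4 to complex II, 8 to complex III, 14 to complex IV (Ndufa4 among them) and 17 to complex V. The members closest to the minimum were Ndufa11b at 1.51, Cox7b2 at 2.12 and Cox4i2 at 4.15. The matching rows below it were Cox6a2 at 0.200, Cox7a1 at 0.0998, Ndufs5 at 0.0375, Cox8b at 0.0272, Cox6b2 at 0.0147 and Cox8c at the floor that stands for no reads.

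The libraries came from ATDC5 cells, a mouse chondrogenic line that serves as a culture model of cartilage formation, as control, with acetate or with ethanol, 3 libraries each. The maintenance medium of all groups, controls included, was DMEM/F-12 to which serum and antibiotics were added, and during the exposure it also held sodium ascorbate, beta-glycero phosphate and an Insulin-Transferrin-Selenium supplement. Doses and times of exposure, and what the controls received, are not given in the sources used here, because the treatment text of the labels describes mouse livers and HepG2 cells. The series asks whether acetate, to which ethanol is oxidised, accounts for a share of what ethanol does to bone genes and to chondrocyte differentiation. Whether replicates were separate cultures is not stated, and a p-value here reflects only how far these samples spread, possibly for technical reasons.

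The respiratory chain of the inner mitochondrial membrane passes electrons from NADH through complex I, or from succinate through complex II, to ubiquinone, then through complex III and cytochrome c to complex IV, which reduces oxygen. Complexes I, III and IV pump protons, and ATP synthase (complex V) uses the return of the protons to make ATP. The core of each complex carries the redox centres or the catalytic sites, while many small supernumerary subunits surround it. Cartilage has no blood vessels, and chondrocytes are known for relying largely on glycolysis. Subunits encoded by mitochondrial DNA were not analysed here.

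The promoters of respiratory genes are known for sites of nuclear respiratory factor 1 (NRF1), a transcription factor of many of these genes, so the windows upstream of the members' start sites were searched for 5 short words on both strands. RefSeq windows on build GRCm38.p6 were matched by symbol for 65 members, in 70 windows. The NRF1 word GCATGCGC stood within the 250 bases before the start in 8 of the 70 windows (11.4%), against 2.26% of all 32851 windows of that length. The windows of that baseline were taken whatever the level or GC content of the gene. No set matched by level or GC content was compared, here or for the other words. The 7 members whose matches are shown here span complexes I, II, IV and V, and the capitals mark the word as it reads on the strand of the gene, as GCATGCGC or as its reverse complement GCGCATGC.
Ndufa8 (complex I, chr2:36049328-36049357, minus strand): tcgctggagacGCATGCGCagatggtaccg
Ndufa6 (complex I, chr15:82354356-82354385, minus strand): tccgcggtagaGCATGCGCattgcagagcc
Ndufa11 (complex I, chr17:56717691-56717720, plus strand): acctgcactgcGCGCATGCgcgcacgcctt
Sdhb (complex II, chr4:140961206-140961235, plus strand): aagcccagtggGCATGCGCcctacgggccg
Cox6a1 (complex IV, chr5:115349102-115349131, minus strand): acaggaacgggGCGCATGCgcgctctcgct
Atp5k (complex V, chr5:108434431-108434460, minus strand): ctttcactgcgGCGCATGCgcctttctggc
Atp5g2 (complex V, chr15:102671071-102671100, minus strand): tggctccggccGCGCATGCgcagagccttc
The word began 8 bases before the RefSeq start of the window in Ndufa8 and 162 bases before it in Cox6a1, with the other 5 between these. The other match was in Atp5l. Starts differ between annotations. In GENCODE M21, used for gene positions below, Ndufa8 spans chr2:36036326-36049406 and Atp5g2 spans chr15:102662864-102672352. The windows shown for both lie inside these spans, and that of Atp5k overlaps the gene. In Ndufa11, Cox6a1, Atp5k and Atp5g2 the word occurs in both orientations, overlapping, and was counted once. Of the other words, the ETS word CCGGAAGT stood in 4.29% against 2.88%, the YY1 word AAGATGGC in 1.43% against 1.57%, the word AAGGTCA of oestrogen-related receptors in 5.71% against 4.08%, and the hypoxia-inducible factor word ACGTG in 21.4% against 16.6%. With the 50 bases after the start included, the YY1 word stood in 14.3% of the members' windows against 2.75% of all. In the same longer windows the NRF1 word stood in 14.3% against 2.71% and the ETS word in 7.14% against 3.89%. The word of oestrogen-related receptors stood in 10% against 4.72%, and that of hypoxia-inducible factor in 24.3% against 19.6%. No word contains another of the 5 in full. A match describes letters in a window, and binding was not measured.

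The libraries held between 28.7 and 41.9 M reads, and 12868 genes passed a minimum mean of 1 CPM and were tested. All 8 chondrocyte markers checked, among them Col2a1, Acan and Sox9, had a mean of at least 1 CPM. Their summed level was 9984 to 13040 CPM in control, 5183 to 5832 CPM in acetate and 4692 to 5931 CPM in ethanol libraries. With ethanol all 8 had a negative log2 fold change, and 6 of them fell past the threshold. With acetate 7 had a negative log2 fold change against control, and 4 fell past the threshold, Col2a1, Col9a1, Matn1 and Comp. The summed level of the 5 osteoblast markers was also lower with ethanol. It was 7066 to 8270 CPM in control, 4690 to 7698 CPM in acetate and 4429 to 5237 CPM in ethanol libraries. With ethanol, 4 of the 5 had a negative log2 fold change, and 1 of these, Bglap, fell past the threshold. The other 1 went up, with a log2 fold change of 1.43, and did not pass. These differences run with treatment beside every result below, and their part in them was not tested. None of 8 muscle, 5 adipocyte or 5 macrophage and blood markers reached a mean of 1 CPM, while 1 of 5 endothelial and epithelial and all 5 osteoblast markers did. By GC content of its transcripts, 1 library, acetate replicate 2, was unlike the other 8. Results that involve acetate are therefore also given without it.

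Within the members, levels per kilobase of transcript spanned from 3.55 CPM per kb for Ndufa11b to 442 CPM per kb for Atp5b, the catalytic beta subunit of ATP synthase. Median levels were 56.7 CPM per kb in complex I, 63.0 in complex II, 116 in complex III, 122.5 in complex IV and 147 in complex V. The highest member of each complex was Ndufa7 (178 CPM per kb), Sdhb (74.1), Uqcr10 (249), Cox6a1 (393) and Atp5b. The lowest was Ndufa11b, Sdhc (25.4), Uqcrc2 (35.3), Cox7b2 (3.91) and Atp5mpl (51.5). The summed level of the 80 members was 8428, 7436 and 7176 CPM in control replicates 1 to 3, or 0.789%, 0.744% and 0.685% of all CPM. It was 8256, 8375 and 6286 CPM with acetate, and 7185, 6967 and 5692 CPM with ethanol. As a share of all CPM, in which the TMM factor cancels, it was 0.783%, 0.873% and 0.646% with acetate, and 0.749%, 0.711% and 0.588% with ethanol. The control and ethanol groups overlapped on both scales: ethanol replicate 1 was just above control replicate 3 by the sum, and by the share ethanol replicate 1 was above control replicates 2 and 3 and ethanol replicate 2 above control replicate 3. In each group replicate 3 had the lowest sum.

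Not every level belongs to its symbol alone. Of the 80 members, 32 shared at least 10% of their 50-base words with another annotated gene, 7 shared at least 50% and 33 shared none. Values of these genes depend on how reads that match several places were counted, which is not given in the sources used here. Ndufb4c (chr15:73809507-73809896 on GRCm38, minus strand), annotated as a processed pseudogene, lies entirely within the sequence of Ndufb4. It was counted at 66.0, 54.4 and 51.2 CPM in control, while Ndufb4 itself was at 12.7, 11.3 and 8.27 CPM. Per kb, Ndufb4 stood at 7.52% ± 0.948 of Ndufb4c in control (SD, n = 3). Ndufs5, which stayed below the minimum, shares 35.6% of its words with BC002163. Atp5g2 shares all of its words with Gm10175, and Cox7c shares 53.0% with 3 other genes. Ndufa11b is annotated as a processed pseudogene too, and Ndufb1 as a noncoding RNA of a bidirectional promoter, so 77 of the members were annotated as protein coding.

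With ethanol, transcripts of nearly all members were slightly below the control level, and 1 of them, Cox4i2, passed the test. The log2 fold change was negative for 77 of 80 members, whereas 50.2% of all genes tested had a negative value. Its median over the members was -0.24, and -0.00 over all genes. The number of members past the threshold in limma (adjusted p under 0.05) was 1 lower and 0 higher, against 2.45% of all genes called lower and 1.48% called higher. At an unadjusted p under 0.05 there were 5 members, all lower, against 10.4% of all genes lower. All 3 ethanol values were below all 3 control values for 25 members (31.2%), against 23.3% of all genes. From bulk libraries, fewer mitochondria-rich cells and less of these transcripts per cell cannot be told apart.

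**Figure D1:**
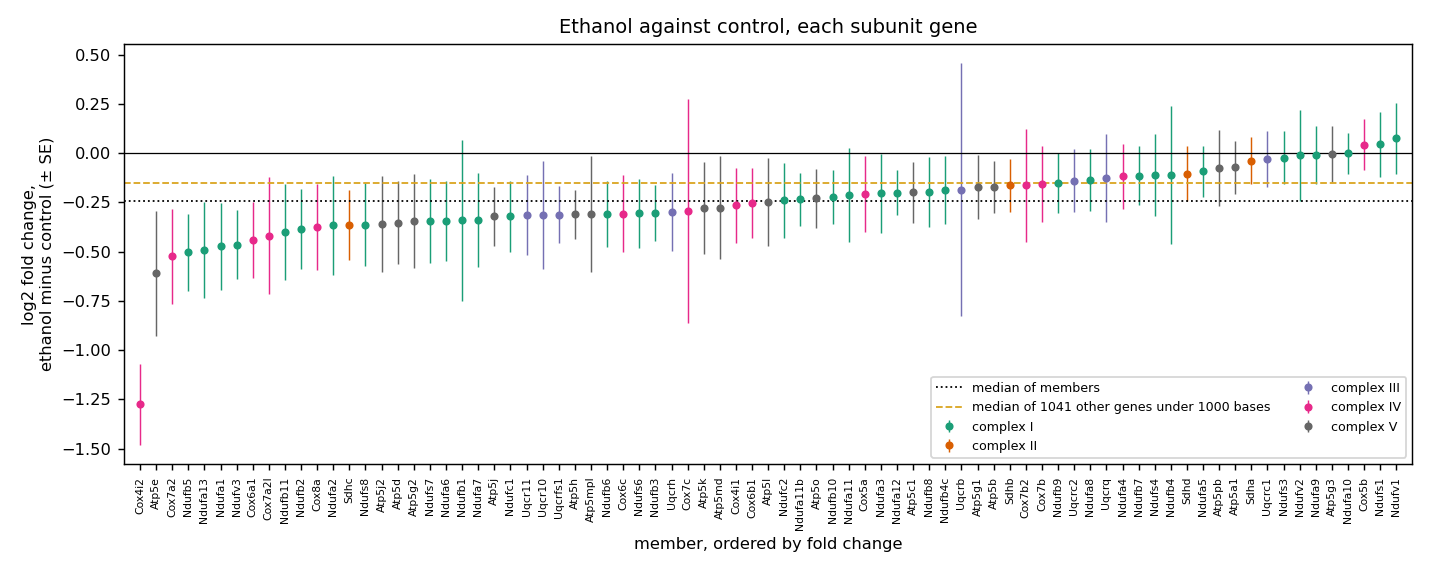
Log2 fold change of ethanol minus control (y axis, bars are the standard error from limma) for 79 members (x axis, ordered by value, coloured by complex). Of the points, 76 lie below 0; Cox4i2 stands apart at -1.28, and the dotted line marks the members' median of -0.24 beside the dashed line at -0.15 for 1041 other genes with short transcripts.

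The differences ran with replicate number as well as with treatment. Measured as the deviation from each gene's mean over the 9 libraries, the members' median was 0.23, 0.08 and -0.00 in control replicates 1, 2 and 3. It was 0.21, 0.18 and -0.19 with acetate, and 0.00, -0.03 and -0.37 with ethanol, while the median of all genes lay between -0.03 and 0.05 in each library. Replicate 3 was the lowest of its group for 51 of 80 members in control, 62 in acetate and 76 in ethanol. The shares of all genes were 27.5%, 29.4% and 38.6%. Ethanol replicate 3 had the lowest median deviation of the 9 libraries. The members' median for ethanol against control was -0.14 without that library, with 66 members below 0.

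**Figure D2:**
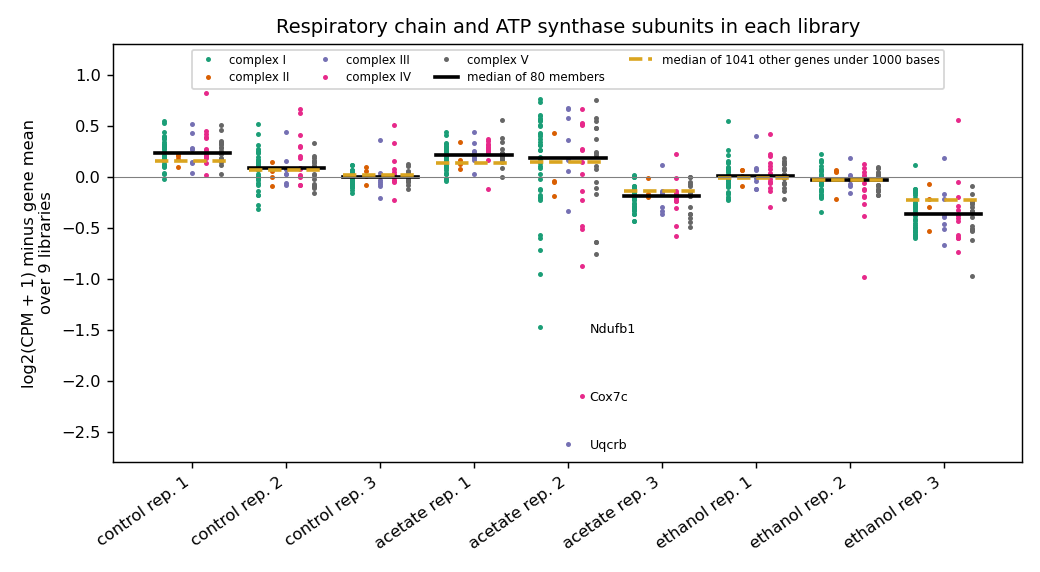
Deviation of each member from its own mean over 9 libraries, as log2(CPM + 1) (y axis), in each library (x axis), with points coloured by complex. Solid bars, the members' median, reach from 0.23 in control replicate 1 to -0.37 in ethanol replicate 3; dashed bars are the median of 1041 other genes under 1000 bases, and Uqcrb, Cox7c and Ndufb1 are far below the rest in acetate replicate 2.

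Same-numbered control and ethanol libraries deviated together over all genes, so a fit with replicate number as a block was made beside the main one. In 52 of 80 members (65.0%) ethanol was lower in all 3 same-numbered pairs, against 33.7% of all genes, and in 0 members was it higher in all 3. The block raised the number of members past the threshold from 1 to 3, Cox4i2, Cox7a2 and Ndufb5, all lower, against 5.07% of all genes called lower in that fit. With the block and the length correction Cox4i2 alone passed (4.78% of all genes lower), and the adjusted p in limma was 0.070 for Cox7a2 and 0.059 for Ndufb5. In the 6 control and ethanol libraries alone, 16 members passed, all lower (14.6% of all genes). With the block and without acetate replicate 2, 56 members passed, all lower, against 25.9% of all genes lower and 24.4% higher. In that last fit limma's prior degrees of freedom were infinite with 3 residual degrees of freedom, so that a gene's own spread did not enter its p-value, and the count is given only as a description. Without acetate replicate 2 and without the block, 3 members passed, Cox4i2, Ndufa13 and Ndufv3 (11.3% of all genes lower). Other settings called more members. With the block and the GC correction, 39 members were lower with ethanol and 0 higher, beside 20.1% of all genes lower and 19.3% higher. In that fit 6 members were lower with acetate than control (9.68% of all genes), and against ethanol 21 were higher with acetate and 1 lower (17.2% and 15.9%). With the block and the length correction and without acetate replicate 2, 29 members were lower with ethanol and 2 higher (27.6% and 26.5% of all genes). There, 7 were lower with acetate than control (12.4%), and against ethanol 14 were higher with acetate and 3 lower (19.3% and 18.7%). With library weights, 44 members were lower with ethanol and 0 higher (26.1% and 28.0% of all genes). The weights gave 49 lower with acetate than control (18.5%), and 2 higher and 4 lower with acetate than ethanol (15.2% and 13.5%).

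Short transcripts moved with the same libraries. The members had a median transcript length of 720.5 bases, against 2808.5 bases for all genes tested. Among the 1041 other genes under 1000 bases, the median deviation was 0.15, 0.06 and 0.01 in control and -0.01, -0.03 and -0.23 in ethanol replicates 1 to 3. Their median log2 fold change with ethanol was -0.15, against -0.30 for the 55 members of that length. From 1000 to under 2000 bases the medians were -0.05 for 2841 other genes and -0.15 for 20 members, and at 2000 bases or longer 0.03 for 8784 other genes and -0.04 for 5 members. In each length class the members' median was thus below that of the other genes. After a correction of each library for transcript length, the members' median was -0.08, with 60 members below 0 and Cox4i2 the 1 member past the threshold (2.81% of all genes lower). The part of transcript length in the members' lower levels was not tested beyond these values.

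**Figure D3:**
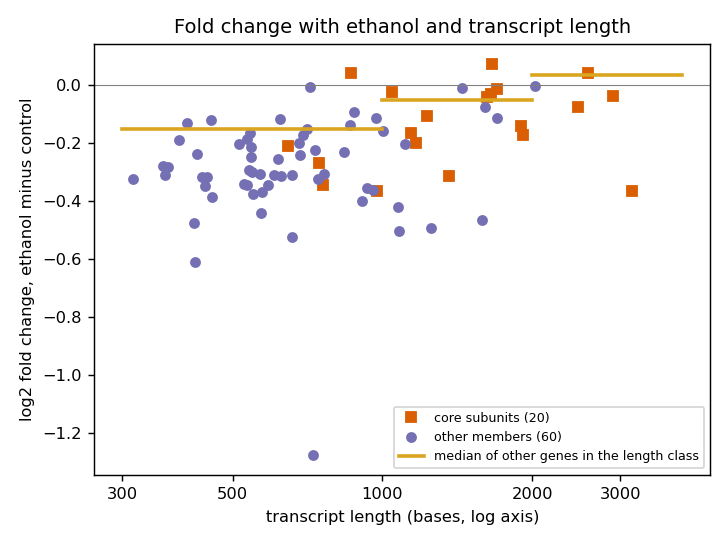
Log2 fold change of ethanol minus control (y axis) against transcript length in bases on a log axis (x axis) for 20 members listed as core subunits (squares) and 60 other members (circles). Horizontal bars give the median of other genes in 3 length classes, -0.15, -0.05 and 0.03; the core subunits, which are longer, had a median of -0.12 and the other members -0.30.

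The members listed as core subunits had longer transcripts and a median nearer to 0 than the other members. That list was set by symbol and also holds Cox4i1, Cox5a and Cox5b of complex IV and Uqcrc1 and Uqcrc2 of complex III. Not all of these carry a redox centre or a catalytic site, so the list is wider than the core described above. The 20 core subunits, with a median length of 1493 bases, had a median log2 fold change of -0.12 with ethanol, and 17 were below 0. The 60 other members, with a median length of 620.5 bases, had a median of -0.30, and all 60 were below 0. With the length correction the medians were -0.06 and -0.09, and the difference between these sets was not tested. By complex, the medians were -0.22 in complex I, -0.13 in complex II, -0.24 in complex III, and -0.28 in both complex IV and complex V. The correction for length brought these to -0.07, -0.06, -0.10, -0.10 and -0.09. Members that shared at least 10% of their words with other genes had a median of -0.26, close to the -0.23 of the other 48.

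Complex I oxidises NADH, and its 7 nuclear-encoded core subunits carry the flavin and the iron-sulfur clusters. None passed the test with ethanol. Ndufv1, which binds NADH and the flavin, was at 77.7, 60.9 and 73.4 CPM in control and at 73.9, 79.6 and 69.2 CPM in ethanol (log2 fold change 0.08 ± 0.18, SE). Ndufs1, which carries several iron-sulfur clusters, was at 91.1, 83.4 and 91.1 CPM in control and at 89.5, 93.2 and 91.1 CPM in ethanol (0.04 ± 0.16). For both, the groups overlapped. Ndufs3 and Ndufv2, further core subunits, had log2 fold changes of -0.02 and -0.01, and overlapped between the groups too. The short core subunits Ndufs7 and Ndufs8, which hold the clusters near the ubiquinone site, differed more. Ndufs7 was at 36.0, 34.5 and 31.1 CPM in control and at 29.2, 29.6 and 21.3 CPM in ethanol, with a log2 fold change of -0.34 ± 0.22 (limma, adjusted p = 0.44). Ndufs8 was at 45.6, 38.7 and 34.6 CPM in control and at 31.8, 32.9 and 26.9 CPM in ethanol, with -0.36 ± 0.21 (limma, adjusted p = 0.40). In these 2 genes every ethanol library was below every control library, although the difference did not pass.

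Among the supernumerary subunits of complex I, Ndufv3 and Ndufb5 had the smallest p-values with ethanol. Ndufv3, a small subunit next to the flavin-bearing arm (chr17:31520115-31531331), was at 136, 123 and 113 CPM in control and at 98.4, 89.6 and 80.2 CPM in ethanol. The groups did not overlap, and the log2 fold change was -0.47 ± 0.18 (limma, adjusted p = 0.195). Ndufb5, a subunit of the membrane arm (chr3:32736990-32751566), was at 47.1, 35.9 and 34.8 CPM in control, against 31.6, 28.1 and 22.6 CPM in ethanol. Its groups did not overlap either, and the log2 fold change of -0.50 ± 0.20 did not pass (limma, adjusted p = 0.21), while the fit that blocks on replicate number passed it (adjusted p = 0.034). Ndufa1, a small membrane-arm subunit encoded on the X chromosome, was at 43.1, 34.4 and 30.4 CPM in control and at 27.9, 28.6 and 20.3 CPM in ethanol (-0.47 ± 0.22, adjusted p = 0.28). Ndufa13, also known as the cell-death regulator GRIM-19, was at 105, 96.8 and 82.8 CPM in control and at 72.1, 73.2 and 56.8 CPM in ethanol (-0.49 ± 0.24, adjusted p = 0.31). In all 4 genes every ethanol library was below every control library.

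The members with an NRF1 word shown above ranged from -0.14 to -0.44 with ethanol, and none of the 7 passed. Ndufa8 was at 80.1, 78.8 and 70.3 CPM in control and at 75.7, 71.2 and 61.6 CPM in ethanol (-0.14 ± 0.16), with overlapping groups. Ndufa6 was at 76.3, 81.5 and 56.4 CPM in control and at 63.3, 59.2 and 45.4 CPM in ethanol (-0.34 ± 0.20), and Ndufa11 at 40.1, 31.5 and 34.8 CPM against 33.8, 33.9 and 24.4 CPM (-0.21 ± 0.24). Atp5k, a small subunit of complex V, was at 76.1, 57.2 and 62.4 CPM in control and at 56.4, 61.7 and 43.2 CPM in ethanol (-0.28 ± 0.23). The groups overlapped in all 4 of these genes.

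Complex II links the tricarboxylic acid cycle to the chain. Its flavoprotein Sdha was at 166, 146 and 166 CPM in control and at 156, 162 and 148 CPM in ethanol (-0.04 ± 0.12). The iron-sulfur subunit Sdhb was at 94.9, 93.4 and 84.3 CPM in control and at 88.1, 88.3 and 68.1 CPM in ethanol (-0.16 ± 0.13). The membrane anchor Sdhd had a log2 fold change of -0.10 ± 0.14, and for all 3 of these genes the groups overlapped. The other anchor, Sdhc, was at 90.9, 79.0 and 82.3 CPM in control and at 74.4, 67.6 and 54.5 CPM in ethanol, with all ethanol libraries below the controls (-0.36 ± 0.18; limma, adjusted p = 0.31). Subunits of 1 complex therefore ranged from nearly level to about the difference of the small subunits, and the difference between Sdhc and Sdha was not tested.

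In complex III, which passes electrons from ubiquinol to cytochrome c, the core subunits Uqcrc1 and Uqcrc2 had log2 fold changes of -0.03 ± 0.14 and -0.14 ± 0.16 with ethanol. The Rieske iron-sulfur protein Uqcrfs1 was at 119, 103 and 98.2 CPM in control and at 90.1, 91.8 and 75.3 CPM in ethanol. The groups did not overlap, and the log2 fold change was -0.31 ± 0.14 (limma, adjusted p = 0.28). Among the small subunits, Uqcr10 was at 126, 116 and 90.6 CPM in control and at 101, 104 and 65.4 CPM in ethanol (-0.31 ± 0.27), and its groups overlapped. Uqcr11 was at 64.5, 61.9 and 55.5 CPM in control and at 53.7, 52.1 and 40.6 CPM in ethanol (-0.32 ± 0.20), without overlap. Uqcrh, Uqcrq and Uqcrb had log2 fold changes of -0.30, -0.13 and -0.19, so that all 8 members of the complex were on the lower side and 0 passed.

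Complex IV, cytochrome c oxidase, reduces oxygen and has isoforms of several subunits that are expressed by tissue or by oxygen supply. Subunit 4 has a general isoform, Cox4i1, and an isoform known from lung and from cells at low oxygen, Cox4i2. Cox4i2 (chr2:152754173-152765037 on GRCm38) was at 7.45, 6.57 and 5.00 CPM in control, at 4.95, 3.87 and 3.33 CPM in acetate, and at 2.89, 1.42 and 1.87 CPM in ethanol. The 3 groups did not overlap, with control highest and ethanol lowest. Cox4i2 fell by 1.28 ± 0.21 on the log2(CPM + 1) scale with ethanol (limma, adjusted p = 0.011), and the pseudocount understates the change of a gene this low. Its adjusted p in the blocked fit was 0.0036. The call was lost when control replicate 1, control replicate 2, ethanol replicate 2 or ethanol replicate 3 was left out, with adjusted p-values of 0.058 to 0.072. Over all alternatives its adjusted p in limma ranged from 3.05e-33, in the fit with infinite prior degrees of freedom, to 0.072.

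**Figure D4:**
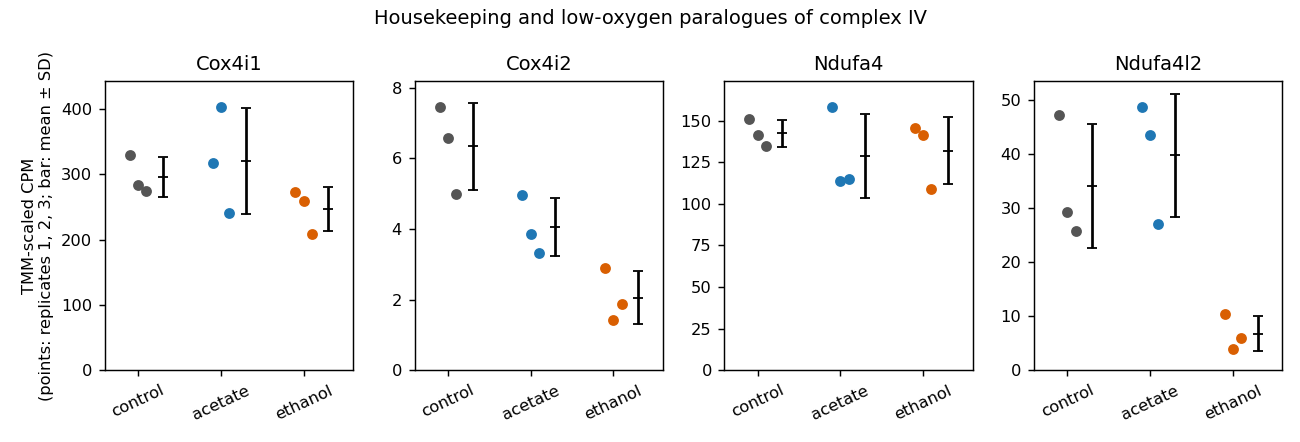
TMM-scaled CPM (y axis, linear from 0 in each panel) of Cox4i1, Cox4i2, Ndufa4 and Ndufa4l2 in control, acetate and ethanol (x axis), with points for replicates 1 to 3 and the mean ± SD beside them. Cox4i2 spans 5.00 to 7.45 CPM in control and 1.42 to 2.89 CPM in ethanol, and Ndufa4l2 spans 25.9 to 47.3 CPM and 4.02 to 10.4 CPM, while Cox4i1 and Ndufa4 keep most of their level.

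Cox4i1 (chr8:120668222-120674207) was at 330, 283 and 274 CPM in control, at 317, 403 and 241 CPM in acetate, and at 273, 259 and 208 CPM in ethanol. Each ethanol library was just below each control library, and the log2 fold change of -0.27 ± 0.19 did not pass (limma, adjusted p = 0.51). Per kb, Cox4i2 amounted to 2.31%, 2.38% and 1.87% of Cox4i1 in control, to 1.60%, 0.984% and 1.42% in acetate, and to 1.09%, 0.562% and 0.920% in ethanol. The minor isoform was therefore a small share of subunit 4 transcripts in every library, and its share was smallest in ethanol replicate 2.

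A gene outside the rule showed the same order of control and ethanol. Ndufa4l2, the low-oxygen relative of Ndufa4, was at 47.3, 29.2 and 25.9 CPM in control, at 48.7, 43.6 and 27.1 CPM in acetate, and at 10.4, 4.02 and 5.88 CPM in ethanol. It fell by 2.21 ± 0.34 with ethanol (limma, adjusted p = 0.0093) and was higher by 2.44 ± 0.34 with acetate than with ethanol (limma, adjusted p = 0.0065). Ndufa4 itself, first assigned to complex I and now to complex IV, was at 151, 141 and 135 CPM in control and at 146, 141 and 109 CPM in ethanol (-0.12 ± 0.16), with overlapping groups. Per kb, Ndufa4l2 amounted to 11.5% ± 3.18 of Ndufa4 in control, 15.0% ± 3.55 in acetate and 2.48% ± 1.04 in ethanol (SD, n = 3). Unlike Cox4i2, Ndufa4l2 thus had overlapping values in control and acetate.

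The remaining isoform families of complex IV were carried by their general forms. Cox6a1, Cox6b1, Cox7a2 and Cox8a were members, whereas the muscle forms Cox6a2 and Cox7a1, the testis form Cox6b2, and Cox8b and Cox8c were below the minimum. Cox6a1, which had the highest level per kb in the complex and holds an NRF1 word, was at 263, 221 and 230 CPM in control and at 203, 181 and 145 CPM in ethanol. The groups did not overlap, and the log2 fold change was -0.44 ± 0.19 (limma, adjusted p = 0.26). Cox7a2 was at 77.4, 69.7 and 55.2 CPM in control and at 54.0, 49.3 and 36.9 CPM in ethanol, again without overlap (-0.52 ± 0.24; limma, adjusted p = 0.28), and passed with the block (adjusted p = 0.036). Its relative Cox7a2l, a factor that joins complexes III and IV into supercomplexes, was at 174, 160 and 111 CPM in control and at 126, 120 and 85.4 CPM in ethanol (-0.42 ± 0.30), with overlap. Cox8a was at 167, 142 and 142 CPM in control and at 129, 124 and 95.5 CPM in ethanol (-0.38 ± 0.22), without overlap.

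The other subunits of complex IV were closer to the control level. Cox5b, a zinc-binding matrix subunit, was at 65.2, 60.9 and 64.5 CPM in control and at 67.8, 66.5 and 62.1 CPM in ethanol, and was 1 of the 3 members with a positive log2 fold change (0.04 ± 0.13). Cox5a, Cox6b1 and Cox6c had log2 fold changes of -0.21, -0.26 and -0.31, and Cox7b and its relative Cox7b2 of -0.16 each. Cox7b2 was low, at 2.47, 2.99 and 2.11 CPM in control, or 3.33% ± 0.479 of Cox7b per kb (SD, n = 3). Cox7c was at 6.00, 8.84 and 8.04 CPM in control and at 6.41, 3.88 and 8.38 CPM in ethanol, a gene whose level is uncertain because of its shared words.

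ATP synthase was the complex with the highest levels. Its catalytic beta subunit Atp5b (chr10:128083273-128090391) was at 926, 781 and 869 CPM in control, at 961, 994 and 800 CPM in acetate, and at 807, 797 and 683 CPM in ethanol (ethanol minus control -0.17 ± 0.13). The alpha subunit Atp5a1 was at 395, 332 and 352 CPM in control and at 350, 361 and 314 CPM in ethanol (-0.07 ± 0.13). The gamma subunit Atp5c1, the rotating shaft, was at 293, 263 and 232 CPM in control and at 244, 239 and 203 CPM in ethanol (-0.20 ± 0.16). Groups overlapped for these 3 core subunits, and none passed.

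The small subunits of the stalks and of the membrane part ranged from -0.00 for Atp5g3 to -0.61 for Atp5e. Atp5pb, a subunit of the peripheral stalk, was at -0.08 ± 0.19. Atp5e, the epsilon subunit of the central stalk, was at 57.0, 44.5 and 41.0 CPM in control and at 39.4, 36.2 and 19.8 CPM in ethanol. The groups did not overlap, and its log2 fold change of -0.61 ± 0.32, the largest after Cox4i2 among the members, did not pass (limma, adjusted p = 0.34). Atp5d, the delta subunit beside it, was at 151, 134 and 128 CPM in control and at 114, 117 and 93.0 CPM in ethanol (-0.35 ± 0.21). Atp5h, a subunit of the peripheral stalk, was at 119, 118 and 104 CPM in control and at 92.5, 95.8 and 85.9 CPM in ethanol, with -0.31 ± 0.12 (limma, adjusted p = 0.22). In both of the latter genes all ethanol libraries were below the controls, and Atp5h shares 50.5% of its words with other genes.

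Atp5g1, Atp5g2 and Atp5g3 encode the same c subunit of the ATP synthase rotor ring, and differ in the part that is cleaved off after import. Per kb, Atp5g1 amounted to 50.5% ± 3.36 of Atp5g3 in control, 54.3% ± 11.3 in acetate and 44.9% ± 3.74 in ethanol (SD, n = 3). Atp5g2, one of the members with an NRF1 word, amounted to 105% ± 16.4, 102% ± 31.8 and 81.6% ± 3.77 of Atp5g3. Atp5g3 was at 150, 124 and 143 CPM in control and at 155, 147 and 116 CPM in ethanol (-0.00 ± 0.14). Atp5g2 was at 102, 89.8 and 76.2 CPM in control and at 81.9, 73.2 and 56.3 CPM in ethanol (-0.35 ± 0.24), and its groups overlapped. The ratios of the 3 genes overlapped or nearly met between control and ethanol, and the levels of Atp5g1 and Atp5g2 include words shared with other annotated genes.

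With acetate, the members as a group were near the control level, and 0 of 80 passed in limma, against 0.505% of all genes called higher and 0.497% called lower. At an unadjusted p under 0.05 there was 1 member, Cox4i2, against 5.13% of all genes lower. The median log2 fold change was -0.05, with 47 members below 0 (58.8%, against 51.3% of all genes). The sign of this median was not stable: it was 0.04 without control replicate 1 and 0.10 without acetate replicate 3. Without acetate replicate 2 it was -0.10, with 70 members below 0, and 0 members passed (3.48% of all genes in either direction). With that library left out and replicate number as a block, 10 members passed, all lower, against 9.34% of all genes, with the infinite prior degrees of freedom described above.

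Cox4i2 was the 1 member whose acetate and control values did not overlap (8.14% of all genes were lower without overlap). Its means were 6.34 ± 1.24 CPM in control, 4.05 ± 0.826 CPM in acetate and 2.06 ± 0.756 CPM in ethanol (SD, n = 3). The log2 fold change of acetate minus control was -0.54 ± 0.21 and did not pass (limma, adjusted p = 0.27; 0.099 with the block). Next by p-value came Ndufb1, Uqcrb, Ndufb3, Cox7c, Cox7b2, Ndufs1 and Cox7b, with log2 fold changes of -0.77, -1.13, -0.25, -0.98, -0.49, -0.26 and -0.31 and limma adjusted p-values from 0.40 to 0.44. In 6 of these 7 genes, all but Ndufb3, acetate replicate 2 was the lowest acetate library. Uqcrb, a small subunit of complex III, was at 62.0, 6.57 and 49.4 CPM in acetate, against 65.7, 61.9 and 58.7 CPM in control. Cox7c was at 6.68, 0.435 and 6.44 CPM in acetate, and Ndufb1 at 31.5, 7.59 and 20.5 CPM against 33.5, 33.3 and 24.1 CPM in control. In these 3 genes a single acetate library was several times lower than the other 2.

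Acetate replicate 2 differed from the other acetate libraries by GC content of the transcript. Across the 80 members, its log2 difference from the mean of acetate replicates 1 and 3 went with GC content at r = 0.71 and rho = 0.758, a description over genes that share 1 library. The 11 members under 45% GC were all lower in it, with a median of -0.79, and of the 25 members at 55% GC or more 22 were higher, with a median of 0.60. Over all genes tested the medians of the same classes were -1.02 and 0.44. The GC-rich member Ndufa13 was at 92.3, 141 and 66.8 CPM in acetate, and Atp5d at 150, 224 and 119 CPM, so that replicate 2 was the highest in both. After a correction of each library for GC content, the median of the members was -0.09 for acetate against control and -0.24 for ethanol against control, and 0 and 2 members passed (2.80% lower and 3.11% higher of all genes with acetate, and 9.16% lower with ethanol), the 2 being Cox4i2 and Ndufv3 with ethanol.

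**Figure D5:**
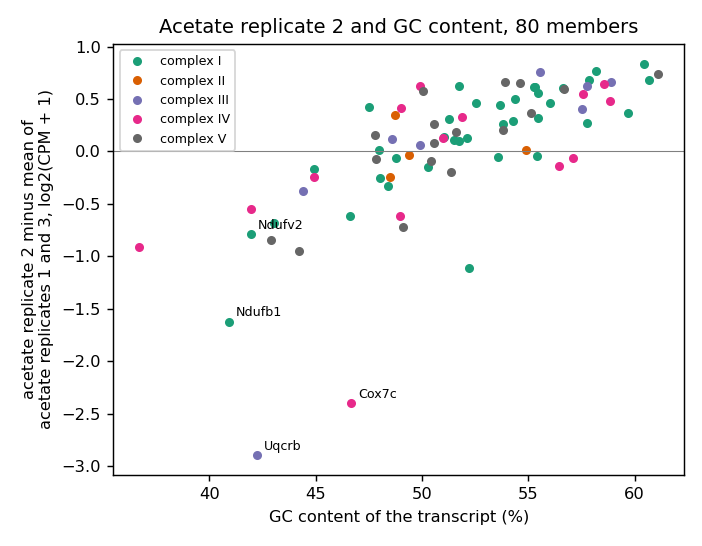
Acetate replicate 2 minus the mean of acetate replicates 1 and 3, as log2(CPM + 1) (y axis), against the GC content of the transcript in percent (x axis) for the 80 members, coloured by complex. Members under 45% GC lie below 0 with a median of -0.79, those at 55% or more lie mostly above with a median of 0.60, and Uqcrb, Cox7c and Ndufb1 are lowest.

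Compared directly, the members were more often higher with acetate than with ethanol, but 0 of 80 passed in limma, against 2.84% of all genes called higher and 0.886% called lower. At an unadjusted p under 0.05 there were 8 members, all higher with acetate, against 13.2% of all genes higher. The median log2 difference of acetate minus ethanol was 0.19 (all genes -0.01), and 60 members were above 0 (75.0%, against 48.9% of all genes). Of the 1041 other genes under 1000 bases, 650 were above 0, with a median of 0.12. After the length correction the members' median was 0.10, with 31 members below 0. The uncorrected median was 0.10 without ethanol replicate 3, 0.32 without acetate replicate 3 and 0.15 without acetate replicate 2. Acetate was higher in all 3 same-numbered pairs for 42 members (52.5%, against 29.2% of all genes). With the block, Cox4i2 and Ndufv3 passed, both higher with acetate (4.67% of all genes higher), and with the block and the length correction Ndufv3 passed (4.77%). With the block and without acetate replicate 2, 29 members were called higher and 1 lower, Ndufs3, against 19.1% and 14.1% of all genes, again with infinite prior degrees of freedom. This comparison shares its ethanol libraries with the comparison against control, so the values are not independent of those above.

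Ndufv3 was at 144, 169 and 105 CPM in acetate and at 98.4, 89.6 and 80.2 CPM in ethanol, a log2 difference of 0.61 ± 0.18 (limma, adjusted p = 0.095; 0.041 with the block). Cox4i2 differed by 0.74 ± 0.21 (limma, adjusted p = 0.088; 0.025 with the block). All acetate libraries were above all ethanol libraries for 5 members (15.3% of all genes), namely Cox4i2, Ndufv3, Atp5d, Ndufa10 and Ndufa12. In the opposite direction there was Ndufs1 alone (12.5% of all genes), at 86.2, 55.1 and 83.7 CPM in acetate against 89.5, 93.2 and 91.1 CPM in ethanol. Its lowest value was in acetate replicate 2, and its transcript is at 46.6% GC. The other acetate values were only slightly below those of ethanol. The next smallest p-values belonged to Cox6a1, Sdhc, Atp5d, Cox8a, Ndufa12 and Uqcr11, whose log2 differences of 0.28 to 0.56 did not pass. Without acetate replicate 2, Atp5d, Cox6a1, Cox8a and Ndufa12 were at 0.31, 0.37, 0.32 and 0.24, and Cox4i2 at 0.76. The differences also ran with GC content. Their median was 0.35 in the 25 members at 55% GC or more and -0.12 in the 11 under 45% GC. Over all genes tested these medians were 0.19 and -0.38. After the GC correction the median of all members was 0.16.

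Other genes of the pathway were read from lists. With ethanol, 2.45% of all genes tested were called lower and 1.48% higher, so few or no calls in lists of this size do not set them apart. Of 53 assembly factors tested, 0 passed with ethanol and the median log2 fold change was -0.11. Of 78 mitochondrial ribosomal proteins, 19 genes of pyruvate entry and the tricarboxylic acid cycle, and 15 genes of cytochrome c and coenzyme Q synthesis, 0 passed in each list with ethanol, and the medians were -0.04, -0.10 and -0.05. These medians were nearer to 0 than that of the subunits, and their median transcripts were longer, at 1253 to 2506 bases. Cytochrome c itself, Cycs, was at 203, 187 and 201 CPM in control and at 186, 192 and 176 CPM in ethanol (-0.10 ± 0.23). Ndufab1, the acyl carrier subunit of complex I that the rule does not match, had a log2 fold change of -0.21 ± 0.12. In the 5 tested subunits outside the symbol rule, the median was -0.14 and 0 passed. With acetate against control, 0 genes of these 5 lists passed (0.505% of all genes higher and 0.497% lower). With acetate against ethanol, 0 passed too (2.84% higher and 0.886% lower).

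Among 17 tested regulators of respiratory genes, 1 passed with ethanol, in the higher direction (1.48% of all genes higher), and the median was 0.07. Perm1, a muscle regulator that acts with PGC-1 and oestrogen-related receptors, was at 1.62, 1.63 and 2.03 CPM in control, at 1.93, 3.69 and 2.74 CPM in acetate, and at 3.32, 4.69 and 4.50 CPM in ethanol. It rose by 0.90 ± 0.18 with ethanol (limma, adjusted p = 0.031), opposite in direction to most members. The coactivator Ppargc1a was at 3.77, 2.96 and 3.94 CPM in control and at 2.10, 2.02 and 2.65 CPM in ethanol, without overlap, and did not pass (-0.48 ± 0.22; limma, adjusted p = 0.27). Tfam, which packages and transcribes mitochondrial DNA, was at 62.1, 60.5 and 62.5 CPM in control and at 61.7, 67.2 and 60.8 CPM in ethanol (0.03 ± 0.20). Nrf1, the factor whose word is shown above, was at 27.1, 24.7 and 27.0 CPM in control and at 27.0, 30.1 and 28.8 CPM in ethanol (0.12 ± 0.11). All 6 tested low-oxygen variants and modulators had a negative log2 fold change with ethanol, and 2 passed, Ndufa4l2 and the member Cox4i2 (2.45% of all genes lower). The median of that list was -0.41, and Hif1a and Higd1a had -0.26 ± 0.31 and -0.55 ± 0.21 and did not pass.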

How the data were processed

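Messenger RNA libraries of ATDC5 cells, 3 each of control, acetate and ethanol, were used. They were made with a stranded mRNA kit, per the labels' protocols. The deposited table gives 26202 genes as log2 values that the authors named TMM-normalised counts. Partek, Bowtie2 2.2.5, STAR 2.7.8a and build mm10 are named in the submitters' processing notes; the annotation and counting step are not given in the sources used here. Each library's floor, which an offset of 1e-05 read would give, was subtracted on the linear scale, giving TMM-scaled CPM. A single read was worth 0.0231 to 0.0348 CPM. Between 1 and 20 recovered reads, 85.6% to 87.2% of values per library were whole within 0.02, so the values were not treated as counts.

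The 12868 genes whose mean reached 1 CPM were fitted as log2(CPM + 1), a scale that understates changes of low genes, with limma 3.58.1 in R 4.3.3 (1 mean per group, 3 contrasts, mean trend, Benjamini-Hochberg over all genes, threshold 0.05). The procedure was also run on simulated reads that held no replicate, GC or length effects. How it performs with the effects seen in these libraries was not tested. Gene positions, transcript lengths and GC shares were read from GENCODE M21 (GRCm38, that is mm10), matched by symbol for 24919 genes and by synonym for 453; GC content was known for 12746 tested genes. Copies were found as shared words of 50 bases. Corrections for GC content or length used lowess with a span of 0.3. The work used Python 3.11.15, pandas 2.3.3 and matplotlib 3.10.9.

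Members, lists, tests and alternatives were chosen with earlier results of these data known; the length correction, and the block without acetate replicate 2, were chosen after seeing the data here. Named were members past the threshold, the 8 smallest p-values per contrast, the highest and lowest per kb in each complex, 20 core subunits, isoform families, up to 4 passing genes per list, and Ppargc1a, Tfam, Cycs, Ndufab1 and Ndufa4l2. Others were named for an NRF1 word, shared words or separated groups after their values were seen. The values of 1 member are not reported here, although counts and medians include it. Replicate numbers come from the labels. Deviations of same-numbered libraries correlated across genes at 0.55, 0.36 and 0.67 for ethanol and control and at 0.15, 0.25 and 0.61 for acetate and ethanol, so these were taken as pairs. Acetate and control gave mixed values of 0.25, -0.10 and 0.41, which leave their pairing unclear. The negative value involves acetate replicate 2, the library unlike the others by GC content. The block covered all 3 groups by replicate number.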

Additional observations from a re-analysis of the deposited data

How the results depend on the processing

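Over 27 alternatives, the members' median with ethanol kept its direction, from -0.33 to -0.14 with 1 library left out, -0.15 without TMM factors (all genes 0.09) and -0.08 with the length correction. For acetate against control the median ran from -0.14 to 0.10 with 1 library left out and was -0.32 with library weights; for acetate against ethanol it ran from 0.10 to 0.32 and was -0.10 with library weights. Members past the threshold, for acetate against control, for ethanol against control and for acetate against ethanol in turn (0, 1 and 0 as reported), were 49, 44 and 6 with library weights, 6, 39 and 22 with the replicate block and GC correction, 10, 56 and 30 with the block without acetate replicate 2, and 7, 31 and 17 with the block and length correction without acetate replicate 2. In the last of these Atp5g3 and Cox5b were called higher with ethanol. The replicate block alone gave 3 for ethanol against control and 2 for acetate against ethanol, and the block with length correction gave 1 for acetate against ethanol. For ethanol against control the GC correction gave 2, the 6 libraries alone 16, and a minimum of 5 CPM, at which Cox4i2 is not tested, 0. Leaving out 1 library gave 0 to 3 for ethanol against control, 0 to 4 for acetate against ethanol and 0 for acetate against control. The 3 came without acetate replicate 2, where 11.3% of all genes were called lower with ethanol. The 4 came without acetate replicate 3. The share of all genes called in that fit is not given here, so that count cannot be read as a result about the members. A library weight of 0.0442 fell on acetate replicate 2, and the weight estimation stopped before its tolerance, so those counts are no measure of strength.

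Called values of opposite sign are listed here for the genes named by rule, not for every member. With library weights for acetate against control they were Atp5a1 (-0.24), Cox4i1 (-0.33), Cox6a1 (-0.32), Cox8a (-0.32), Ndufa11b (-0.29), Ndufa7 (-0.48), Ndufs7 (-0.37), Ndufs8 (-0.45) and Uqcr10 (-0.48). Further members, among them Atp5k and Ndufa13, also turned from positive to called lower with the weights. With the block and length correction without acetate replicate 2 the listed values were Atp5g3 for ethanol against control (0.16) and, for acetate against ethanol, Cycs (0.16). With the block without acetate replicate 2 Cox5a was 0.21, and with the block and GC correction Cycs was 0.30, both for acetate against ethanol. The cause was not tested. Of the other values, 3513 were the same, 344 moved, 235 were stronger and 11 weaker. The members' standard errors as reported were 0.10 to 0.64, and 3 libraries per group limit their precision.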
